A study of Mus musculus with 11 samples.

Results

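The 5 genes Itgax, Batf3, Flt3, Clec9a and Xcr1 mark dendritic cells, and they were chosen by name from the 754 genes of a NanoString panel measured in mouse skin. All 5 were above the filter on low values, among 696 genes tested. Skin from the nape of the neck was collected 7 weeks after bone marrow transplantation from 11 mice, 3 syngeneic, 3 allo-WT and 5 allo-MCd. All recipients had received 850 cGy of radiation, then bone marrow cells and splenocytes. Syngeneic and allo-WT recipients were C57BL/6J mice, and allo-MCd recipients were B6.Cg-KitW-sh/HNihrJaeBsmGlliJ mice, which carry the W-sh allele of Kit in every recipient cell and lack mast cells. The allogeneic grafts came from LP/J donors with a normal Kit gene. For the syngeneic group the study's methods name C57BL/6J donors, but the labels name LP/J as the donor strain of every mouse. Under the methods' account, donor strain and alloreactivity cannot be told apart in any comparison with the syngeneic group. The allo-MCd and allo-WT groups differ in the recipient's Kit allele and in mast cells together, and the values cannot tell those apart either.

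Dendritic cells take up antigen in tissues and present it to T cells. Conventional dendritic cells arise from bone marrow precursors that carry Flt3, the receptor tyrosine kinase for Flt3 ligand. Type 1 cells (cDC1) depend on the transcription factor Batf3, are specialised in cross-presentation to CD8 T cells, and carry Clec9a, a C-type lectin that senses dead cells, and Xcr1, the receptor for the chemokine XCL1. Itgax encodes CD11c, an integrin chain found on most dendritic cells and also on some macrophages and monocytes. In the skin, host and donor antigen-presenting cells are known to take part in graft-versus-host disease.

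The promoters of 4 of the genes are shown because Itgax and Batf3 were called lower in allo-MCd skin on the deposited scale and Clec9a and Xcr1 were not. Each sequence runs 5′ to 3′ on the gene's strand, from 250 bases before to 50 bases after the RefSeq start in GRCm38.p6, and capitals mark a motif match. The motifs searched on both strands were TGANTCA, the AP-1 site read by Fos, Jun and Batf proteins, and GAGGAA, the core read by PU.1, an ETS factor of myeloid cells. Itgax lies at chr7:128129300-128129599 on the plus strand, Batf3 at chr1:191098164-191098463 on the plus strand, Clec9a at chr6:129408612-129408911 on the plus strand and Xcr1 at chr9:123861980-123862279 on the minus strand.
Itgax: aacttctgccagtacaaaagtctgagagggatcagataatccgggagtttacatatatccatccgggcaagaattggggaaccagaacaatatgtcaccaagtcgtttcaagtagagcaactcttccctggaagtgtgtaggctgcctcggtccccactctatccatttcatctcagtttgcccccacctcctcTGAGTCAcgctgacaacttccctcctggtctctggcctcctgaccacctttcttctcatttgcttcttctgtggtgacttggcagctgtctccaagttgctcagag
Batf3: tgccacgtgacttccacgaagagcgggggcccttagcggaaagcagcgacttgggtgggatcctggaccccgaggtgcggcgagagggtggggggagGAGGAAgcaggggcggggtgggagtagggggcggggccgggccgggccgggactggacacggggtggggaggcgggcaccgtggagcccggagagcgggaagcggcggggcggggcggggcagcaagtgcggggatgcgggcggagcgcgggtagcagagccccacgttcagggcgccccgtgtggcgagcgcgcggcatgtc
Clec9a: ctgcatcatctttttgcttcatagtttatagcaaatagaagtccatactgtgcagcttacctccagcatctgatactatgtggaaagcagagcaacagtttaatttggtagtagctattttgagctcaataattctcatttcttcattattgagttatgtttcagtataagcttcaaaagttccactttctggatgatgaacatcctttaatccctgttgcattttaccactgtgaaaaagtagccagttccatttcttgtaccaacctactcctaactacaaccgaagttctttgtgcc
Xcr1: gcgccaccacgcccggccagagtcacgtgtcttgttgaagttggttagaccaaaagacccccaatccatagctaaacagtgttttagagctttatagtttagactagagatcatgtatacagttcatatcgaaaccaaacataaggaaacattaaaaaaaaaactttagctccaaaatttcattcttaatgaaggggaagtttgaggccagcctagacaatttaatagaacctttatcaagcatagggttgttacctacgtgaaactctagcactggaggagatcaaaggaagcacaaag
The Itgax window held 1 AP-1 match, TGAGTCA, 56 bases before the start. The Batf3 window held 1 ETS match, GAGGAA, 153 bases before the start. The Clec9a, Xcr1 and Flt3 windows held neither motif. Of 32851 mouse promoters of this length, 7.81% held TGANTCA and 28.3% held GAGGAA, and no binding was measured in these mice.

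The input was 100 ng of RNA per mouse, and the values are normalized counts of RNA molecules read by color-coded probes. Each probe reads with its own efficiency, so a value is compared between mice and not between genes. Whole counts recovered from the deposited values totalled 831632 to 1460260 per mouse. Background, the mean of the negative control probes plus 2 SD, lay between 14.3 and 37.5 normalized counts. Counts of the 5 genes were low, with 29 to 213 recovered counts of Itgax, 38 to 140 of Batf3, 10 to 104 of Flt3, 14 to 93 of Clec9a and 10 to 79 of Xcr1 per mouse. Itgax and Batf3 were above background in all 11 mice, Flt3 and Clec9a in 10 and Xcr1 in 9. Allo-WT mouse 1 stood apart, with the lowest total, the largest normalization factor (2.54) and only 3975 counts of the strongest positive control against 17615 to 33547 in the other mice. It gave 10 counts of Xcr1, 10 of Flt3 and 14 of Clec9a, all below its background, so group differences of the low genes are also given without it. The mast cell genes checked the labels: the summed value of 6 of them lay between 100 and 621 in allo-MCd mice and between 2083 and 13956 in the other mice. Of the keratinocyte markers none was on the panel, and the collagen gene Col1a2 was abundant in every mouse, from 3535 normalized counts.

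Itgax, the CD11c gene, was lowest in the allo-MCd group. In syngeneic skin its normalized count was 102, 75.7 and 112. In allo-WT skin it was 185, 254 and 94.5, and in allo-MCd skin 35.7, 36.2, 30.0, 25.5 and 47.2. Every allo-MCd mouse was below every other mouse, as for 46% of the genes against allo-WT and 37.4% against syngeneic mice, whereas the syngeneic and allo-WT ranges overlapped because allo-WT mouse 3 lay among the syngeneic mice.

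Batf3, the transcription factor on which cDC1 depend, had a different order of groups. Its normalized count was 150, 151 and 122 in syngeneic skin. It was 96.3, 97.9 and 153 in allo-WT skin and 38.7, 47.3, 69.2, 36.7 and 73.7 in allo-MCd skin. The allo-MCd mice again lay below all others, and the syngeneic and allo-WT ranges overlapped.

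Flt3, the growth factor receptor, was highest in the syngeneic group. The normalized count was 73.3, 86.6 and 115 in syngeneic skin, 25.4, 41.8 and 69.0 in allo-WT skin and 32.7, 27.8, 42.4, 29.5 and 82.9 in allo-MCd skin. All 3 syngeneic mice were above all 3 allo-WT mice, and 4 of the 5 allo-MCd mice lay below the syngeneic range, with mouse 5 inside it.

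Clec9a and Xcr1, the receptors by which cDC1 sense dead cells and find XCL1, had wide and overlapping groups. Clec9a was at 74.8, 63.8 and 81.6 normalized counts in syngeneic skin, 35.5, 41.8 and 97.1 in allo-WT skin, and 29.6, 37.1, 53.7, 44.7 and 107 in allo-MCd skin. Xcr1 was at 29.9, 49.8 and 64.0 in syngeneic skin, 25.4, 49.0 and 101 in allo-WT skin, and 22.8, 43.6, 46.5, 42.3 and 67.9 in allo-MCd skin. For both genes all 3 groups overlapped, and mouse 3 of the allo-WT group and mouse 5 of the allo-MCd group were the highest of their groups. The 10 counts of Xcr1 in allo-WT mouse 1 correspond to a Poisson 95% interval of 12.2 to 46.6 normalized counts, which covers counting error only, so the lower end of these ranges is not well fixed.

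**Figure D1:**
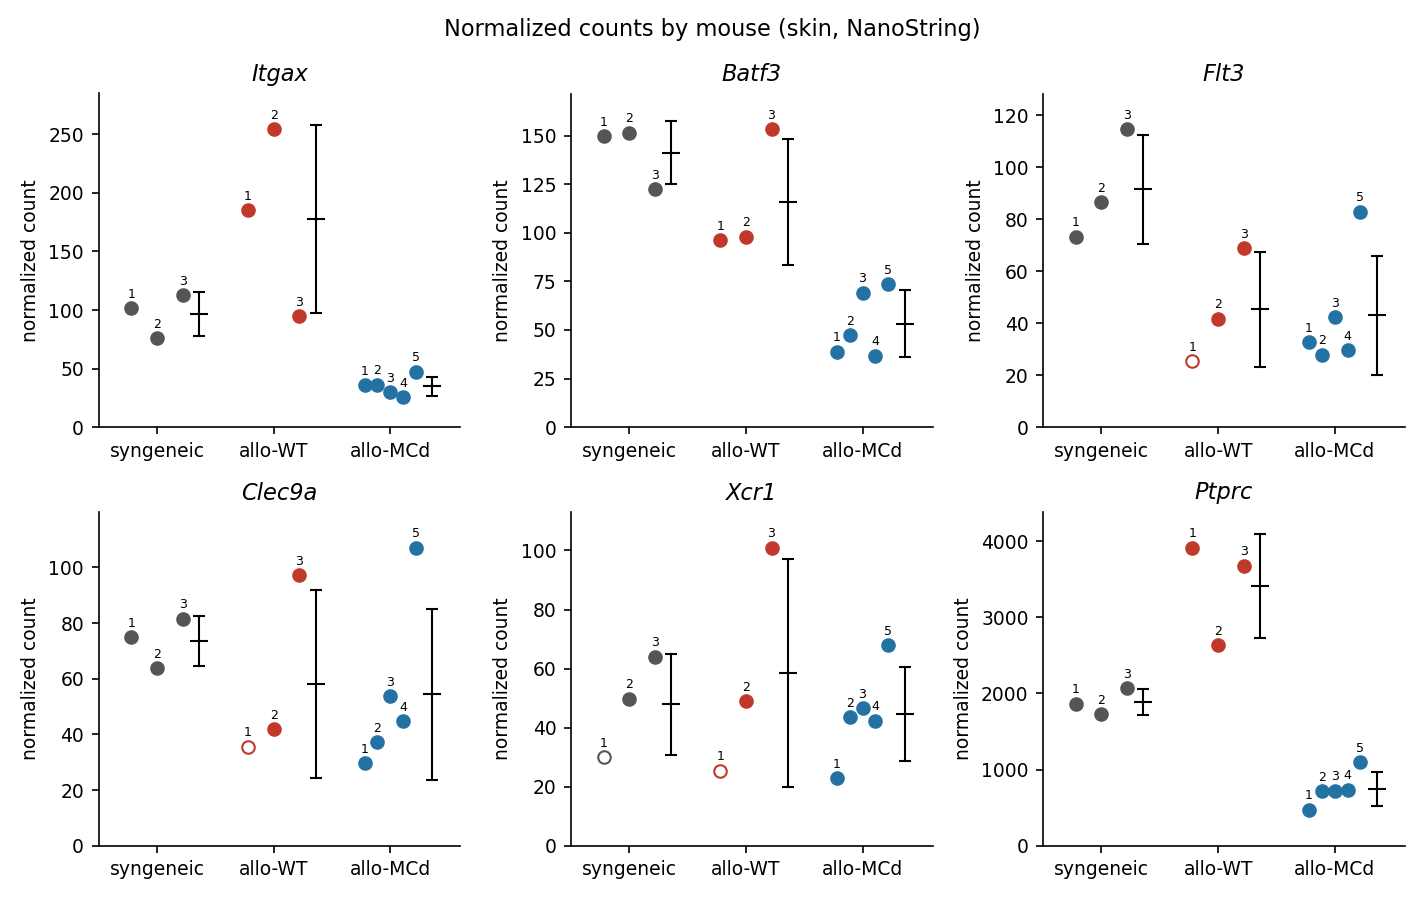
Normalized counts (vertical axes, from 0) of the 5 dendritic cell genes and of the pan-leukocyte gene Ptprc in each mouse, with the mean and SD of each group beside the points. Numbers name the mice and open circles are values at or below that mouse's background. Itgax, Batf3 and Ptprc in the 5 allo-MCd mice lie below all other mice, whereas Flt3, Clec9a and Xcr1 in allo-MCd mice overlap the allo-WT mice.

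Between allo-MCd and allo-WT skin, which asks what differs when the recipient lacks mast cells, 2 of the 5 genes were lower and none was higher. Itgax fell 4.71-fold and Batf3 fell 2.20-fold. Here and against syngeneic skin, folds come from the difference in mean log2(value + 1) and are not ratios of the arithmetic means printed. From allo-WT to allo-MCd skin the mean went from 178 ± 80.2 (SD, n = 3) to 34.9 ± 8.15 normalized counts (SD, n = 5) for Itgax. For Batf3 it went from 116 ± 32.4 to 53.1 ± 17.3. On the log2 scale the Itgax difference was -2.23 (SE 0.34, limma adjusted p = 0.000124) and the Batf3 difference was -1.13 (SE 0.30, limma adjusted p = 0.0062). The exact permutation p was 0.0179 for Itgax, the smallest that 3 mice against 5 allow, and 0.0357 for Batf3 (two-sided). The Batf3 call was lost after each mouse was scaled to the median of its genes (1.23-fold lower, log2 difference -0.30, limma adjusted p = 0.314) and after quantile normalization (-0.13, limma adjusted p = 0.673). A lower value was common in this comparison: 50% of the 696 genes were called lower and 10.9% higher, and the median gene differed by -0.72. Itgax was thus lower than the median gene by 1.52 on the log2 scale and Batf3 by 0.42, and 18% of the genes had a lower difference than Itgax and 38.9% a lower difference than Batf3. In bulk skin, fewer cells that express these genes, of whatever type, and less RNA per cell cannot be told apart.

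The 3 other genes showed no difference past the threshold between allo-MCd and allo-WT skin. Flt3 averaged 43.0 ± 23.0 against 45.4 ± 22 normalized counts, with a log2 difference of -0.09 and a 95% interval from -0.98 to 0.81 (limma adjusted p = 0.861). Clec9a averaged 54.4 ± 30.7 against 58.1 ± 33.9, a log2 difference of -0.10 with an interval from -1.03 to 0.84 (limma adjusted p = 0.856). Xcr1 averaged 44.6 ± 16.0 against 58.4 ± 38.7, a log2 difference of -0.25 with an interval from -1.24 to 0.75 (limma adjusted p = 0.656). The intervals reach -0.98 or lower for each gene, so a decrease of that size lies within the error of these values. Without allo-WT mouse 1 the differences were -0.44 for Flt3, -0.37 for Clec9a and -0.72 for Xcr1, and without allo-WT mouse 3 they were 0.27, 0.34 and 0.25, none of them past the threshold.

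Against syngeneic skin, allo-MCd skin had lower values of 3 of the 5 genes. Itgax fell 2.74-fold from 96.7 ± 18.9 normalized counts (log2 difference -1.45, SE 0.34, limma adjusted p = 0.00545). Batf3 fell 2.72-fold from 141 ± 16.3 (-1.45, SE 0.30, limma adjusted p = 0.00337), and both had an exact permutation p of 0.0179. Flt3 fell 2.25-fold from 91.5 ± 21.1 (-1.17, SE 0.41, limma adjusted p = 0.0386), but its groups overlapped, the exact permutation p was 0.0536, and the call was lost when any syngeneic mouse or any of allo-MCd mice 1 to 4 was left out, with an adjusted p of up to 0.137. It was also lost after median scaling (-0.59, limma adjusted p = 0.249), quantile normalization (-0.62, limma adjusted p = 0.235) and background subtraction (-1.38, limma adjusted p = 0.103). Clec9a differed by -0.56 (95% interval from -1.50 to 0.37, limma adjusted p = 0.292) and Xcr1 by -0.11 (from -1.11 to 0.88, limma adjusted p = 0.848). Of all genes tested, 36.9% were called lower and 4.6% higher, with a median difference of -0.59. The pan-leukocyte gene Ptprc fell as well (-1.38, limma adjusted p = 0.00161). Scaled to Ptprc in the same mouse, Itgax was at -0.10, Batf3 at -0.08 and Flt3 at 0.19, none past the threshold. The Itgax call did not hold under the test named in the study's methods (adjusted p of 0.166), nor after median scaling (1.83-fold lower, log2 difference -0.87, limma adjusted p = 0.0629) or quantile normalization (-0.89, limma adjusted p = 0.0799).

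Between allo-WT and syngeneic skin, the comparison of an allogeneic with a syngeneic graft in mice with mast cells, none of the 5 genes passed the threshold. Over all genes, 14.9% were called lower and 28.3% higher. Itgax differed by 0.78 (95% interval from -0.04 to 1.60, limma adjusted p = 0.105), a value that became 1.18 when allo-WT mouse 3 was left out (limma adjusted p = 0.0152). Flt3 differed by -1.08 (from -2.08 to -0.09, limma adjusted p = 0.0706), although its groups did not overlap, as was so for 20.3% of genes in that direction. Its exact permutation p was 0.1, the smallest that 3 mice against 3 allow. Without allo-WT mouse 3 the Flt3 difference was -1.44 (limma adjusted p = 0.0257). With allo-WT mouse 1 left out instead, whose count was below background, it was -0.73 (limma adjusted p = 0.235). Batf3 differed by -0.31, Clec9a by -0.47 and Xcr1 by 0.13, with limma adjusted p between 0.428 and 0.841. When allo-WT mouse 1 was left out, these were -0.20, -0.19 and 0.61, again with no call, and over all mice left out in turn Clec9a ranged from -0.91 to -0.19.

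**Figure D2:**
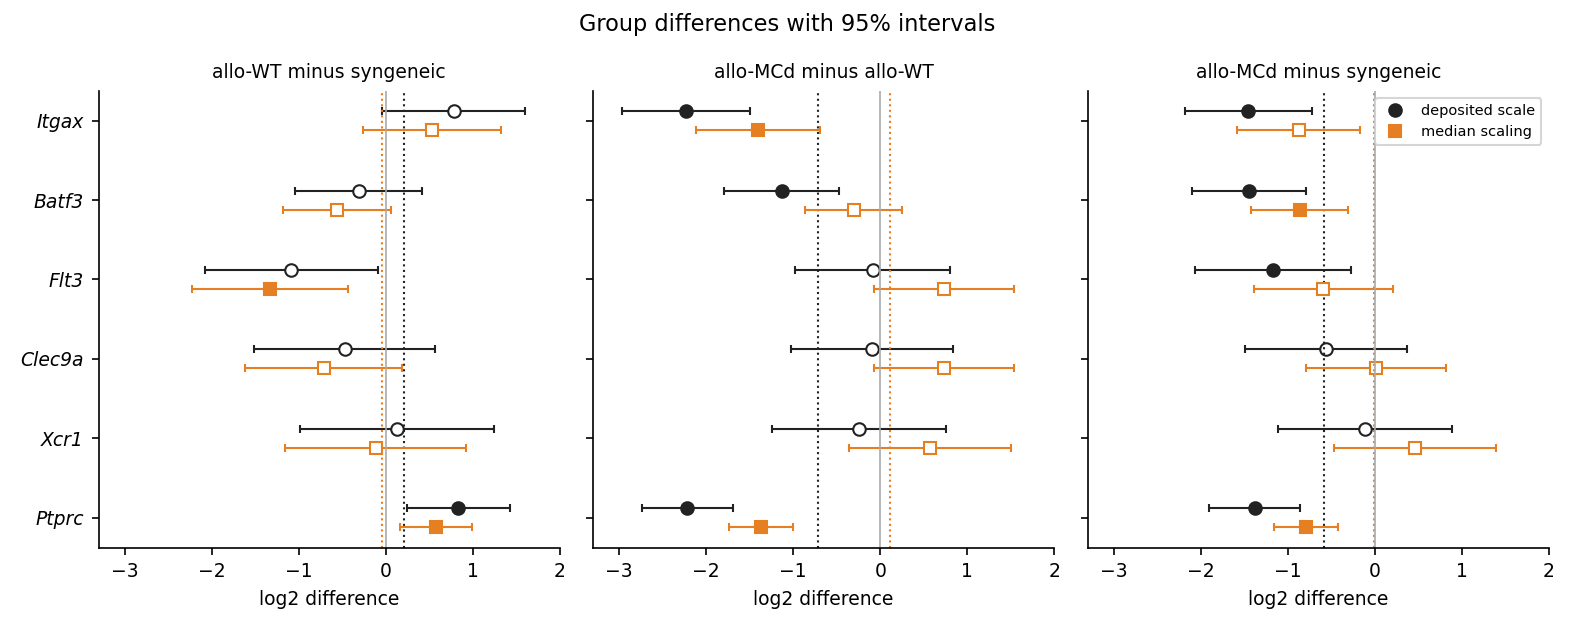
Log2 differences (horizontal axes) of the 5 genes and Ptprc in the 3 comparisons, with 95% intervals from limma. Circles are on the deposited scale and squares after each mouse was scaled to the median of its genes, filled symbols passed an adjusted p of 0.05, and dotted lines mark the median of all 696 genes. For allo-MCd minus allo-WT, Flt3, Clec9a and Xcr1 lie at -0.09 to -0.25 on the deposited scale and at 0.58 to 0.73 after median scaling.

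The sign of the allo-MCd minus allo-WT difference depended on the scale for Flt3, Clec9a and Xcr1, and not for Itgax and Batf3 under median scaling or quantile normalization. The typical gene of the panel was lower in allo-MCd skin, and when each mouse was divided by the median of its genes, Flt3 was at 0.73, Clec9a at 0.73 and Xcr1 at 0.58 in allo-MCd minus allo-WT, none past the threshold (limma adjusted p = 0.0968, 0.1 and 0.251). After quantile normalization Flt3 (0.95, limma adjusted p = 0.0352) and Clec9a (0.89, limma adjusted p = 0.0392) were called higher in allo-MCd skin, a direction in which 36.6% of genes were then called. Itgax stayed lower under both scalings, at -1.40 after median scaling (limma adjusted p = 0.00259), where 30.3% of genes were called lower. In allo-WT minus syngeneic, Flt3 at -1.33 passed the threshold after median scaling (limma adjusted p = 0.0186), where 27.3% of genes were called lower, and in allo-MCd minus syngeneic Batf3 alone of the 5 kept its call (-0.86, limma adjusted p = 0.0272, 13.5% of genes called lower).

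The ratio of one gene to another in the same mouse does not depend on the scaling, and it was compared for the 10 pairs in the 3 comparisons, 30 tests chosen after the values were seen. The Batf3 to Clec9a ratio averaged 2.16 in allo-WT and 1.04 in allo-MCd skin, with no overlap between the groups (log2 difference -1.05, exact permutation p = 0.0179). The Itgax to Flt3 ratio averaged 3.93 in allo-WT and 0.869 in allo-MCd skin, also with no overlap (-2.18, exact permutation p = 0.0179). The ratio of Flt3 to Clec9a averaged 0.798 and 0.803, with an exact permutation p of 0.964. When allo-WT mouse 1 was left out these log2 differences were -0.89 for Batf3 to Clec9a, -1.73 for Itgax to Flt3 and -0.07 for Flt3 to Clec9a. After adjustment over the 30 tests the lowest p was 0.107. The smallest raw p is 0.0179 with 3 mice against 5 and 0.1 with 3 against 3, so the allo-WT minus syngeneic pairs could not have passed, and these tests say little either way about whether the genes respond alike.

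Ptprc, which encodes CD45 on all nucleated blood cells, was measured beside the 5 genes as a level of leukocyte RNA. It was at 1866, 1729 and 2070 normalized counts in syngeneic skin, 3914, 2636 and 3677 in allo-WT skin, and 472, 717, 720, 738 and 1094 in allo-MCd skin. The groups did not overlap, and the allo-MCd minus allo-WT difference was -2.22 (limma adjusted p = 1.2e-05), close to that of Itgax. Macrophage genes moved in the same way: 10 of 10 tested fell from allo-WT to allo-MCd skin, where 50% of all genes fell, and 7 rose from syngeneic to allo-WT skin, where 28.3% of all genes rose. From syngeneic to allo-MCd skin 9 of the 10 fell, where 36.9% of all genes fell. Scaled to Ptprc, 2 of the 10 were called lower and 1 higher in allo-MCd minus allo-WT, and 1 was called higher in allo-WT minus syngeneic. Of all genes on that scale, 8.06% were called lower and 67.5% higher in the former comparison and 10.6% higher in the latter. Their summed value ranged from 26325 to 31787 in syngeneic mice, from 52857 to 73166 in allo-WT mice and from 8126 to 14420 in allo-MCd mice. The part of macrophages in the Itgax difference was not tested.

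Read against Ptprc in the same mouse, Itgax no longer differed past the threshold between the allogeneic groups, and Batf3, Flt3, Clec9a and Xcr1 were higher in the allo-MCd group. Clec9a stood at 4.01, 3.69 and 3.94% of Ptprc in syngeneic mice, 0.907, 1.59 and 2.64% in allo-WT mice and 6.28, 5.17, 7.46, 6.05 and 9.79% in allo-MCd mice. Xcr1 stood at 1.60, 2.88 and 3.09%, then at 0.648, 1.86 and 2.74%, and in allo-MCd mice at 4.83, 6.08, 6.46, 5.73 and 6.21%. For both receptors every allo-MCd mouse was above every other mouse, as for 61.4% of 695 genes against allo-WT mice and 48.9% against syngeneic mice. The ratio to Ptprc was, from allo-WT to allo-MCd mice, 4.35-fold higher for Clec9a and 3.92-fold higher for Xcr1.

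Relative to Ptprc, Flt3 was 4.38-fold and Batf3 2.10-fold higher in the allo-MCd mice, again without overlap with allo-WT mice. For all 4 genes the exact permutation p of the ratio was 0.0179. When allo-WT mouse 1 was left out the ratios were 3.31-fold higher for Clec9a, 2.58-fold for Xcr1, 3.16-fold for Flt3 and 1.79-fold for Batf3, still without overlap, as for 63.6% of genes, and each at an exact permutation p of 0.0476, the smallest that 2 mice against 5 allow. In the limma fit scaled to Ptprc the adjusted p was 8.02e-05 for Clec9a, 0.000628 for Xcr1, 0.000165 for Flt3 and 0.00633 for Batf3. On this scale 67.5% of 695 genes were called higher, the median gene was at 1.48, and Clec9a and Flt3 at 2.07 and 2.06, Xcr1 at 1.91 and Batf3 at 1.05 lay around it. Itgax was at 4.73, 9.65 and 2.57% of Ptprc in allo-WT and 3.46 to 7.57% in allo-MCd mice, a log2 difference of -0.051 (limma adjusted p = 0.907).

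Relative to Ptprc in syngeneic mice, Xcr1 alone of the 5 genes was called higher in allo-MCd mice (1.24, limma adjusted p = 0.022), in a comparison in which 45.5% of genes were called higher. Clec9a was at 0.80 (limma adjusted p = 0.074) and its groups did not overlap. In allo-WT minus syngeneic, Flt3 (-1.87, limma adjusted p = 0.00219), Clec9a (-1.27, limma adjusted p = 0.0136) and Batf3 (-1.13, limma adjusted p = 0.0126) were lower relative to Ptprc, as were 42.6% of genes. Xcr1 was at -0.67 (limma adjusted p = 0.236) and Itgax at -0.045. As plain log2 ratios with allo-WT mouse 1 left out, the differences were -1.47 for Flt3, -0.92 for Clec9a and Batf3 and -0.10 for Xcr1, and those of Flt3, Clec9a and Batf3 were without overlap, as for 49.1% of genes, at an exact permutation p of 0.1, the smallest that 2 mice against 3 allow.

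**Figure D3:**
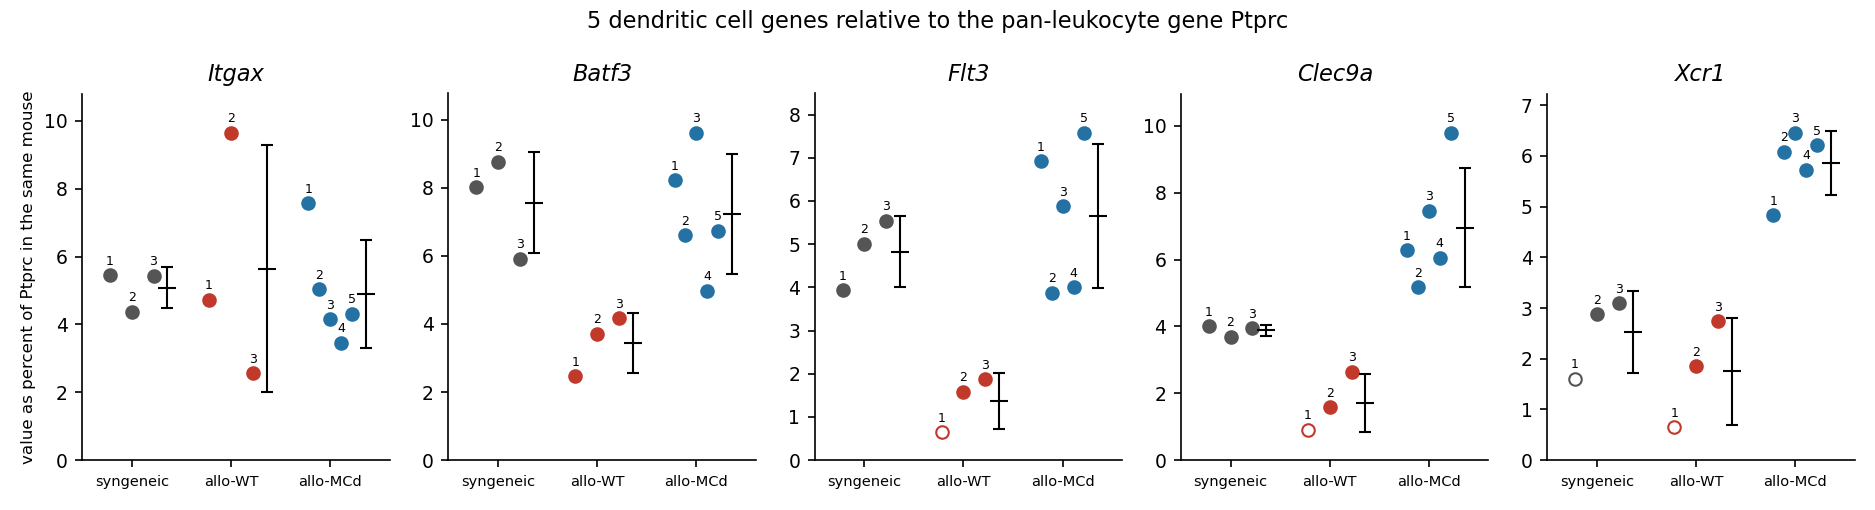
Each of the 5 genes as a percent of the Ptprc value in the same mouse (vertical axes, from 0, each panel with its own scale), with the mean and SD of each group beside the points. Open circles are values at or below background. The allo-MCd mice lie above the allo-WT mice for Batf3, Flt3, Clec9a and Xcr1, and overlap them for Itgax.

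Within groups, Clec9a, Xcr1, Flt3 and Batf3 varied together from mouse to mouse and Itgax did not. After subtraction of the group means, Pearson's r over the 11 mice was 0.90 for Clec9a with Flt3, 0.82 for Clec9a with Xcr1 and for Flt3 with Xcr1, and 0.80 for Clec9a with Batf3. It was 0.72 for Flt3 with Batf3 and 0.60 for Xcr1 with Batf3. Between Itgax and the other 4 genes it lay between -0.29 and -0.02. With Ptprc it was 0.72 for Clec9a, 0.54 for Batf3, 0.49 for Xcr1, 0.48 for Flt3 and 0.0066 for Itgax. The values of one mouse share its library and normalization factor, and the correlations are given as a description. In allo-WT mouse 3 Xcr1, Clec9a, Flt3 and Batf3 were above the group mean, by 0.99, 0.87, 0.71 and 0.44 on the log2 scale, whereas Itgax was 0.79 below it. In allo-MCd mouse 5 all 5 genes and Ptprc were the highest of the group.

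**Figure D4:**
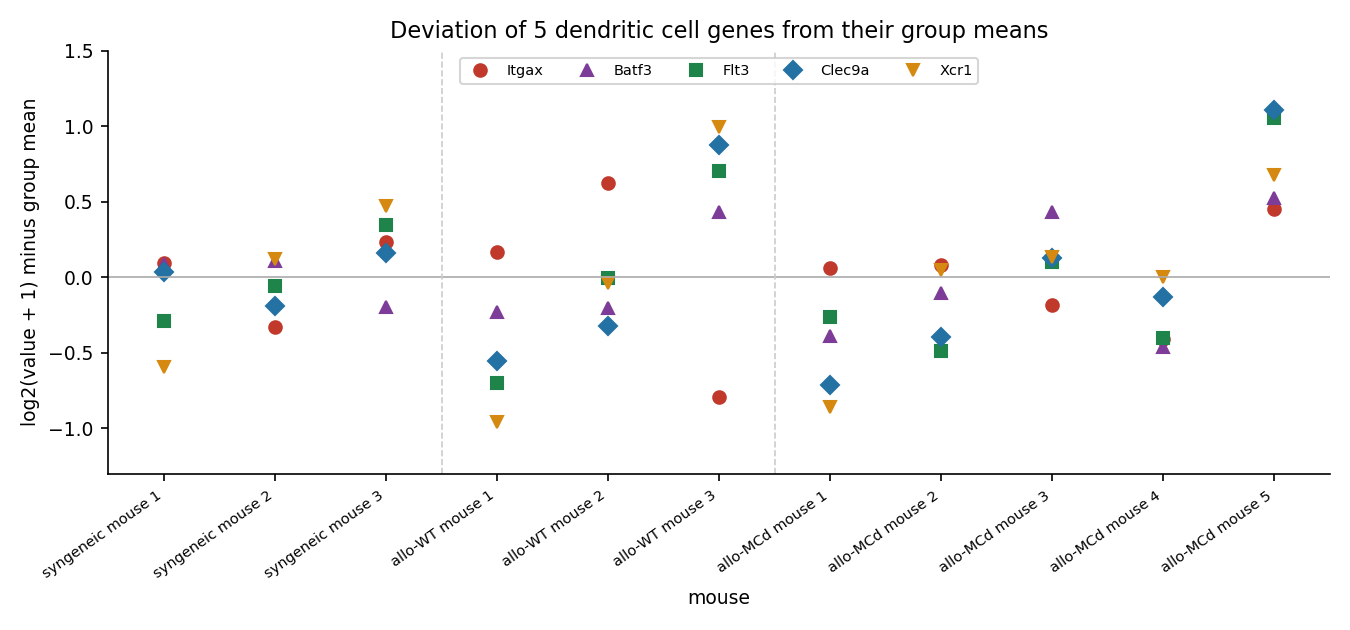
Deviation of log2(value + 1) from the group mean (vertical axis) for the 5 genes in each of the 11 mice, with dashed lines between the groups. In allo-WT mouse 3 Itgax lies at -0.79 while the other 4 genes lie between 0.44 and 0.99, and in allo-MCd mouse 5 all 5 genes lie above the mean.

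The panel genes whose log2 values ran most nearly parallel to each of the 5 across the 11 mice were ranked by Pearson's r over 695 other genes. For Itgax they were Ly6c1, Il18 and Icos, with r of 0.95 each. For Clec9a they were Tlr11 (0.88), which encodes a receptor for microbial profilin, Flt3 (0.87) and the chemokine gene Ccl22 (0.86). Xcr1 ran nearest to Nrip3 (0.81), Clec9a (0.75) and Sp4 (0.72). Flt3 ran nearest to H2-DMb2 (0.95), a chain of the peptide-loading molecule of MHC class II, Ptgs1 (0.92) and Gsn (0.91), and Batf3 to Nfatc2 (0.97), Csf2ra (0.96) and Arhgef6 (0.96). Likeness over 3 groups of mice reflects the group means as well as the mice, and no shared control is implied.

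Of the genes that act with cDC1, 7 of 16 listed were on the panel and tested. From allo-WT to allo-MCd skin 4 of them fell and none rose, a share near the 50% of all genes that fell, with a list median of -0.89 against -0.72 for all genes. Cxcl9, an interferon-induced chemokine gene that is also expressed by many other cells, went from 28059 ± 17394 to 827 ± 759 normalized counts (-5.24, limma adjusted p = 9.84e-06), and it was the only one to rise from syngeneic skin (357 ± 74.4) to allo-WT skin. Irf8, the transcription factor that works with Batf3 in cDC1, fell from 471 ± 210 to 165 ± 62.6 (-1.47, limma adjusted p = 0.00675) with overlapping groups. Il12b, a subunit of interleukin 12, fell from 93.5 ± 75.0 to 21.3 ± 10.6 (-1.93, limma adjusted p = 0.0057), and it was above background in only 7 mice. Tlr3, the receptor for double-stranded RNA, fell from 225 ± 38.5 to 123 ± 29.6 (-0.89, limma adjusted p = 0.0106). The difference was -0.42 for Id2 (limma adjusted p = 0.084), 0.53 for Nfil3 (limma adjusted p = 0.157) and 0.07 for Tlr11 (limma adjusted p = 0.89), which like Flt3, Clec9a and Xcr1 did not pass the threshold. After median scaling only Cxcl9 was still called lower (-4.40), Id2 (0.43) and Nfil3 (1.37) were called higher, and Irf8 was at -0.63, Il12b at -1.11 and Tlr3 at -0.05 without a call. Of all genes 30.3% were then called lower and 35.6% higher. None of the 7 genes was called between allo-MCd and syngeneic skin on either scale. Of all genes, 36.9% were called lower and 4.6% higher on the deposited scale, and 13.5% and 13.9% after median scaling. Scaled to Ptprc, 4 of the 7 were called higher and none lower in that comparison, with a median of 0.89, against 45.5% of all genes higher and a median of 0.77.

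Among type 2 conventional dendritic cell genes, Irf4, Klf4 and Cd1d1 had their highest mean in syngeneic skin, as Flt3 did. Irf4, a transcription factor of these cells, averaged 584 ± 15.4 normalized counts with a syngeneic graft, 199 ± 46.8 in allo-WT skin and 169 ± 73.6 in allo-MCd skin. Irf4 fell from syngeneic to allo-WT skin (-1.58, limma adjusted p = 0.00652) and to allo-MCd skin (-1.90, limma adjusted p = 0.00167), where 14.9% and 36.9% of all genes were called lower. After median scaling Irf4 (-1.83) and Klf4 (-0.81) were called lower in allo-WT minus syngeneic and Itgam (0.64) higher, against 27.3% and 24.3% of all genes. Of the 5 genes tested from this list of 14, Itgam (-2.26, limma adjusted p = 2.43e-06) and Sirpa (-1.3, limma adjusted p = 7.02e-05), which macrophages also express, fell from allo-WT to allo-MCd skin, where 50% of all genes fell, and 4 fell from syngeneic to allo-MCd skin, where 36.9% of all genes fell. Itgam also rose from 820 ± 135 in syngeneic to 1526 ± 308 in allo-WT skin. Klf4, a transcription factor that keratinocytes also express, was the remaining gene to fall from syngeneic (11044 ± 1633) to allo-MCd skin (6448 ± 1433). After median scaling, Itgam and Sirpa were still called lower in allo-MCd minus allo-WT and Klf4 was called higher (0.61), against 30.3% and 35.6% of all genes, and Irf4 and Itgam were the genes still called lower in allo-MCd minus syngeneic, against 13.5% of all genes. The 2 Langerhans cell genes tested, Cdh1 and Cd1d1, were called in none of the comparisons on the deposited scale. Of all genes, 14.9% were called lower and 28.3% higher in allo-WT minus syngeneic. The shares were 50% and 10.9% in allo-MCd minus allo-WT, and 36.9% and 4.6% in allo-MCd minus syngeneic. After median scaling Cdh1 was called higher in allo-MCd skin (0.80 against allo-WT and 1.16 against syngeneic mice), as were 35.6% and 13.9% of all genes. Cd1d1 is also counted in the type 2 list, and whether these 2 genes read Langerhans cells in bulk skin was not tested.

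Most genes of mature, migrating dendritic cells were lower in allo-MCd skin. From allo-WT to allo-MCd skin 11 of 13 tested fell, with a list median of -1.95 against -0.72 for all genes, of which 50% were called lower, and from syngeneic to allo-MCd skin 9 fell, against 36.9% of all genes. Macrophages and other cells also express several of these genes, and the macrophage list had a median of -2.56 and Ptprc a difference of -2.22 in the same comparison, and the part of those cells was not tested. Scaled to Ptprc, none of the 13 was called lower and 6 were called higher, with a median of 0.26, against 8.06% of all genes lower, 67.5% higher and a median of 1.48, so the list lay below the typical gene on this scale too. The costimulatory genes Cd40 (347 ± 60.0 to 62.8 ± 13.7), Cd80 (432 ± 110 to 76.7 ± 12) and Cd86 (823 ± 170 to 200 ± 51.9) were each without overlap, with log2 differences of -2.46, -2.46 and -2.05. Of all genes 46% were lower without overlap in this comparison. The ligands of the inhibitory receptor PD-1 fell as well, Cd274 from 2737 ± 1381 to 346 ± 170 (-3.0) and Pdcd1lg2 from 145 ± 68.4 to 26.4 ± 7.08 (-2.34). The chemokine genes Ccl17 (-2.18) and Ccl19 (-1.95) and the lymph node homing receptor Ccr7 (70.4 ± 29.8 to 27.9 ± 7.48, -1.28, limma adjusted p = 0.0123) fell too. Lamp3 (-0.88) and the actin-bundling gene Fscn1 (-0.76) were also called without overlap, Lamp3 being above background in only 4 mice, and Il15 (-1.01) was called with overlap. Ccl22 (-0.25) and Cd83 (-0.71) did not pass the threshold. After median scaling 7 of the 13 were still called lower than in allo-WT skin and none higher, against 30.3% and 35.6% of all genes, with Fscn1 at 0.09, Lamp3 at -0.09, Il15 at -0.17 and Ccr7 at -0.45 no longer called, and against syngeneic skin 4 were called lower and 1, Fscn1, higher, against 13.5% and 13.9% of all genes.

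Between syngeneic and allo-WT skin, Cd274 (2.57), Cd40 (1.33), Fscn1 (1.26) and Cd80 (1.16) rose and Cd83 fell (-1.42) among the 13 mature dendritic cell genes, against 28.3% of all genes that rose and 14.9% that fell. Scaled to Ptprc, 1 of the 13 was called higher and 3 lower, against 10.6% and 42.6% of all genes. Plasmacytoid dendritic cells, which sense nucleic acids and make type I interferon, were represented by 5 of 11 listed genes. The sensor genes Tlr7 (460 ± 202 to 90.7 ± 27.0) and Tlr9 (337 ± 14.2 to 86.3 ± 24.9), Irf7 (2170 ± 422 to 573 ± 311) and Ccr9 (118 ± 52.4 to 34.7 ± 10.2) fell from allo-WT to allo-MCd skin without overlap. Of all genes 50% were called lower there and 46% fell without overlap. These 4 were still called lower after median scaling, against 30.3% of all genes. Scaled to Ptprc none of the 5 was called lower and 1 was called higher, with a median of 0.20, against 67.5% of all genes called higher. Irf7, an interferon-induced gene in many cells, was the only one of the 5 to rise from syngeneic to allo-WT skin (1.44, limma adjusted p = 0.0128). From syngeneic to allo-MCd skin Tlr7, Tlr9 and Il3ra fell, in a comparison in which 36.9% of all genes fell. After median scaling 1 of them, Tlr9, was still called lower (-1.06), against 13.5% of all genes, and scaled to Ptprc none was. Over the 5 dendritic cell lists together 31 genes were tested, of which 21 fell and none rose from allo-WT to allo-MCd skin, with a median of -1.3. Of all genes 50% were called lower on that scale. After median scaling 14 of the 31 were called lower and 4 higher, against 30.3% and 35.6% of all genes. Scaled to Ptprc the direction turned, with 1 of the 31 called lower and 16 higher and a median of 0.88, against 67.5% of all genes called higher and a median of 1.48.

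**Figure D5:**
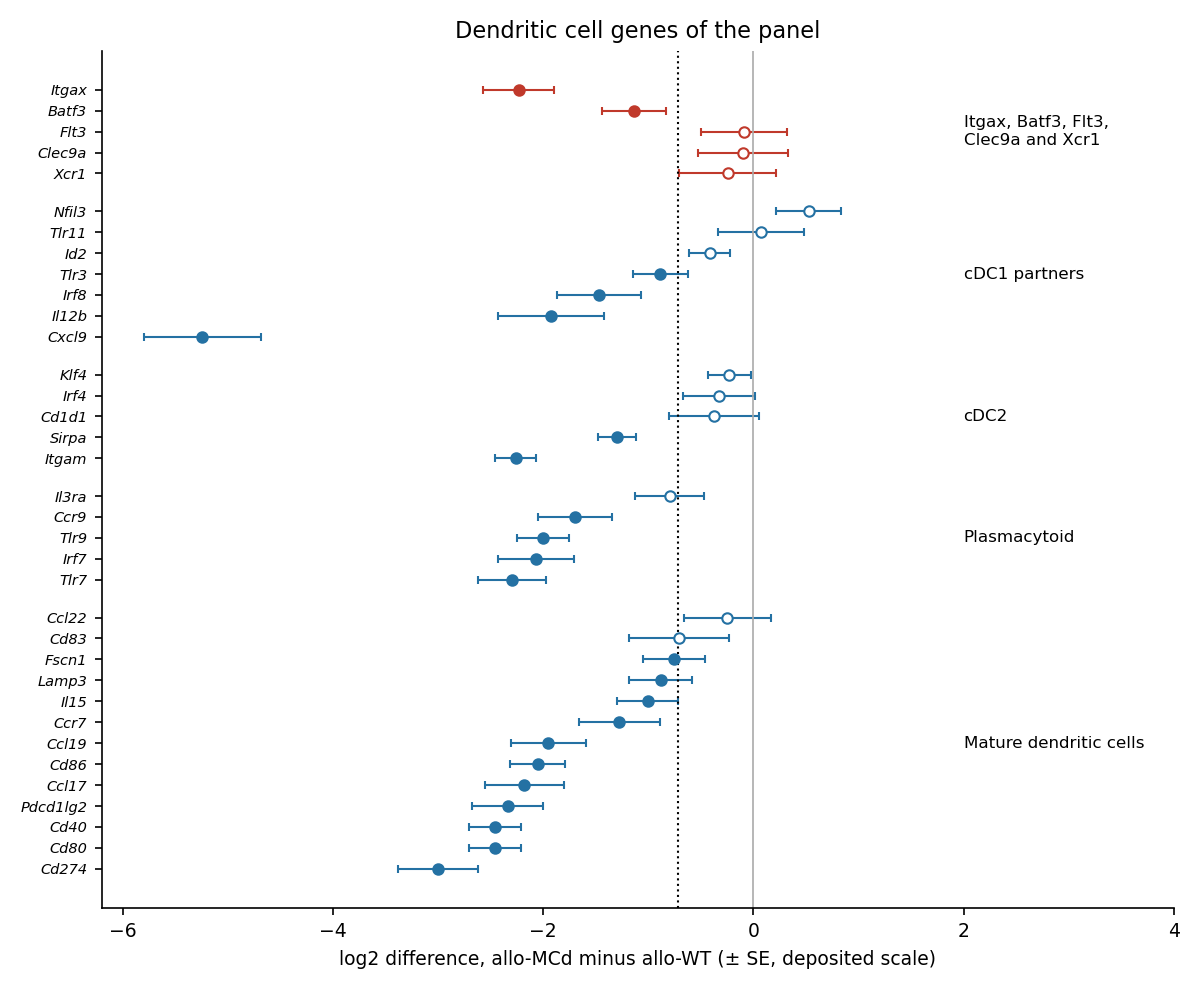
Log2 differences between allo-MCd and allo-WT skin (horizontal axis, with SE bars) for Itgax, Batf3, Flt3, Clec9a and Xcr1 in red and for other dendritic cell genes of the panel in blue, by list. Filled circles passed a limma adjusted p of 0.05, the dotted line is the median of all 696 genes at -0.72 and the grey line is 0. Flt3, Clec9a, Xcr1 and Tlr11 lie near 0, whereas 11 of 13 mature dendritic cell genes are filled and left of 0.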

How the data were processed

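RNA counts of 754 genes and 14 control probes came from the Myeloid Innate Immunity panel of NanoString, 1 lane for each of 11 mice. The authors normalized them in nSolver and deposited the result as a linear signal. Which version, housekeeping genes and background setting they used is not given in the sources used here, and a scaling to other genes moves all values of a mouse together. Of the symbols, 744 matched RefSeq, 9 by a synonym and 1 not. Dividing by 1 factor per mouse (0.759 to 2.54) made 99.87% to 100% of gene values whole, within 0.011, which gave the recovered counts. Replicates of 1 group differed by more than sampling noise. Whether mice of 1 group came from 1 transplant is not stated, so p-values measure the spread between these mice.

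The test was limma 3.58.1 (R 4.3.3) on log2(value + 1), with an intensity trend, all 3 groups in 1 fit and no covariate. It covered 696 genes that reached 20 in 3 mice or more, with 20 housekeeping genes set aside. Such log2 differences understate the change of low genes. P-values were adjusted by Benjamini-Hochberg over all genes tested and called at 0.05. Exact permutation tests were two-sided on mean log2 values. On simulated data with 200 of 696 genes changed, 64.7% of log2 changes of 1 and 95% of changes of 2 were recovered for allo-MCd minus allo-WT. Python 3.11.15 with pandas 2.3.3 and matplotlib 3.10.9 was used for the rest.

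The 5 genes and all lists were chosen with earlier results of these data known. Of the listed dendritic cell genes all tested ones were counted, and those called without overlap, with Irf8, Id2, Irf4 and Ccr7, were named with values, as were the 3 genes most like each of the 5. Others named were chosen after their values were seen. Of the other lists, the T-cell list (1 of 10 tested, Cd247) and 3 cytotoxic genes fell from allo-WT to allo-MCd skin, as did 4 neutrophil genes and 5 of 6 growth factor and receptor genes, where 50% of all genes fell. After median scaling Cd247 was not called (-0.23, limma adjusted p = 0.489), 3 cytotoxic and 3 neutrophil genes were called lower, and of the growth factor and receptor genes 1 was lower and 1 higher, against 30.3% of all genes lower and 35.6% higher. In that comparison, of 4 fibroblast genes 1 fell and neither of 2 endothelial genes was called, whereas after median scaling no fibroblast gene was called and both endothelial genes were called higher. In allo-WT minus syngeneic 1 fibroblast and 2 endothelial genes were called lower on the deposited scale, against 14.9% of all genes. In allo-MCd minus syngeneic 2 fibroblast genes and 1 endothelial gene were called lower, against 36.9%. No B-cell gene passed the filter. Alternatives were other pseudocounts, filters and scalings, limma with no trend or a robust trend, fits on 2 groups, a block for the mouse number, each mouse left out in turn, the methods' 3-group test, and, chosen after seeing the data, voom on recovered counts, background subtraction and gene ratios without allo-WT mouse 1.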

Additional observations from a re-analysis of the deposited data

Results flagged for a closer look

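Flt3 in allo-MCd mouse 5 stood apart from the other 4 mice of its group, at 82.9 normalized counts against 27.8 to 42.4. The gap to the next mouse was 0.736 of the group's range, above the critical value of 0.71 for 5 mice. The ratio was taken on the linear scale and not on the log2 scale of the group tests. The 5 genes were each looked at in the allo-MCd group, and chance flags about 1 in 20 groups of normally distributed values. Clec9a in the same mouse, at a gap of 0.689, was just under the critical value. Ptprc was also highest in this mouse, at 1094 normalized counts, and its part in the Flt3 value was not tested.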

How the results depend on the processing

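Of 390 values of the 5 genes under the alternatives, 327 kept their direction and their side of the threshold and 35 changed sign. In all 19 lost a call and 16 gained one, of which 1 and 6 also changed sign. The cause of these changes was not tested, beyond what each scaling does by construction. For allo-MCd minus allo-WT, median scaling gave 0.73 for Clec9a, 0.58 for Xcr1, 0.73 for Flt3 and -0.30 for Batf3, quantile normalization gave 0.89, 0.78, 0.95 and -0.13, and background subtraction gave 0.061, 0.071 and 0.25 for Clec9a, Xcr1 and Flt3. Scaling to Ptprc gave -0.051 for Itgax, 2.07 for Clec9a, 1.91 for Xcr1, 2.06 for Flt3 and 1.05 for Batf3. For allo-MCd minus syngeneic, median scaling gave -0.87 for Itgax, 0.016 for Clec9a, 0.46 for Xcr1 and -0.59 for Flt3, quantile normalization gave -0.89 for Itgax, 0.54 for Xcr1 and -0.62 for Flt3, and background subtraction gave 0.26 for Xcr1 and -1.38 for Flt3. Scaling to Ptprc gave -0.10 for Itgax, 0.80 for Clec9a, 1.24 for Xcr1, 0.19 for Flt3 and -0.080 for Batf3, and the methods' test gave -1.47 for Itgax. For allo-WT minus syngeneic, median scaling gave -0.11 for Xcr1 and -1.33 for Flt3, quantile normalization gave -0.24 for Xcr1, -1.56 for Flt3 and -0.70 for Batf3, and scaling to Ptprc gave -0.045 for Itgax, -1.27 for Clec9a, -0.67 for Xcr1, -1.87 for Flt3 and -1.13 for Batf3.

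Leaving out 1 mouse gave 0.47 to 1.18 for Itgax, -0.36 to 0.61 for Xcr1 and -1.44 to -0.73 for Flt3 in allo-WT minus syngeneic. It gave -0.37 to 0.34 for Clec9a, -0.72 to 0.25 for Xcr1 and -0.44 to 0.27 for Flt3 in allo-MCd minus allo-WT, and -0.41 to 0.12 for Xcr1 and -1.43 to -1.0 for Flt3 in allo-MCd minus syngeneic. The calls of Itgax and Batf3 in both comparisons with allo-MCd mice held without each mouse in turn. With the mouse number as a block, Flt3 in allo-WT minus syngeneic passed the threshold at -1.08 (limma adjusted p = 0.0317). Same-numbered mice did not deviate together (r from -0.112 to 0.211, 3 of 9 pairs over 0.1), so the block has no basis beyond the number, and it changed no other call of the 5 genes.

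Of all genes, 104 were called lower and 197 higher in allo-WT minus syngeneic. Median scaling gave 190 lower, quantile normalization 209 lower, scaling to Ptprc 296 lower and 74 higher, and leaving out 1 mouse 64 to 130 lower. In allo-MCd minus allo-WT, 348 lower and 76 higher became 211 and 248 under median scaling, 205 and 255 under quantile normalization and 56 and 469 when scaled to Ptprc, and leaving out 1 mouse gave 48 to 89 higher, the fewest without allo-WT mouse 1. In allo-MCd minus syngeneic, 257 lower and 32 higher became 94 and 97, 99 and 94, and 10 and 316, and leaving out 1 mouse gave 166 to 311 lower. The planned count test (edgeR) on the recovered counts was not run. Low counts limit Xcr1, Flt3 and Clec9a most, and allo-WT mouse 1 gave 10 to 14 counts of them.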

Other observations

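Among growth factor and receptor genes, 6 of 8 listed were on the panel and tested. Csf2ra, a chain of the receptor for GM-CSF and one of the genes most like Batf3 across the mice, averaged 1010 normalized counts with a syngeneic graft, 640 in allo-WT skin and 242 in allo-MCd skin, with no overlap between the allo-MCd mice and either other group. Of all genes, 46% lay lower without overlap against allo-WT mice and 37.4% against syngeneic mice. From allo-WT to allo-MCd skin Csf2ra fell by 1.47 on the log2 scale (limma adjusted p = 0.00259), where 50% of all genes fell, and after median scaling its call was lost (-0.62, limma adjusted p = 0.0548). Csf1r, the macrophage growth factor receptor, fell by 2.09 (limma adjusted p = 5.49e-05) and was still called lower after median scaling (-1.25, limma adjusted p = 0.000292), as were 30.3% of all genes. Kitl, the ligand of Kit, differed by 0.53 (limma adjusted p = 0.0573), and after median scaling it was called higher in allo-MCd skin (1.37, limma adjusted p = 0.000861), as were 35.6% of all genes. The panel held no probe for the Flt3 ligand or for Xcl1, so the ligands of Flt3 and Xcr1 are not analysed here.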
